A study of Mus musculus with 12 samples.

Results

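Hair keratins and keratin-associated proteins (Krtap) are the building blocks of the hair shaft and its inner root sheath (IRS). The genes described here are all those whose symbol starts with Krtap, together with the keratins Krt25 to Krt28, Krt31 to Krt36, Krt71 to Krt75 and Krt81 to Krt86, with a summed count of at least 20 over the 12 libraries. This rule gave 57 genes out of the 50684 genes counted, from 79 genes with such symbols. They were 36 Krtap genes, 7 type I hair keratins, 5 type II hair keratins, 4 type I and 4 type II keratins of the IRS, and Krt75 of the companion layer. Krtap4-16 and Krtap24-1 lay just inside the limit with 22 and 25 counts, and Krtap28-10 and Krtap4-6 just outside it with 19 counts each.

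RNA was measured by RNA-Seq in the ears of 12 female C57BL/6 mice, which were 8 weeks old. Either PBS, 1 µg of IL-17A, 1 µg of IL-36γ or 1 µg of each cytokine was injected intradermally into the ear in 5 µL. Treatment was consecutive over 4 days, and the tissue was then taken, on day 4. Each of the 4 groups, named PBS, IL-17A, IL-36γ or, for the combination, IL-17A + IL-36γ, held 3 mice. All mice were of 1 strain, and the control ears were injected too, so that all 4 groups share the injury of the needle. The libraries held 25293468 to 34759293 counts, of which the 57 genes together had 17730 over all libraries. The RNA came from a piece of whole ear in which genes of epidermis, muscle, cartilage and fat were all present (6 epidermal keratins summed to 22772 to 51088 CPM), and in such bulk samples fewer cells of a type and less RNA per cell cannot be told apart.

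Hair is made in cycles. In the growth phase, matrix cells at the base of the follicle divide and differentiate into concentric layers: the shaft with medulla, cortex and cuticle, the IRS that moulds it, and the companion layer between the IRS and the outer root sheath. Type I and type II keratins pair into filaments, and in the shaft these are cross-linked in a matrix of Krtap proteins, which are rich either in cysteine or in glycine and tyrosine. In resting follicles most of these genes are silent, so that their RNA follows the number and stage of growing follicles in a piece of skin.

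The coding sequences of a pair of Krtap members show what separates the protein types. By the proteins translated from the GENCODE annotation, 13 Krtap members were high glycine-tyrosine proteins (both residues together at least 35%). Another 7 were ultra-high sulfur proteins (cysteine above 30%). The other 15 with a coding sequence are named high sulfur here, a remainder with no lower limit on cysteine. It includes Krtap15 with 4% and Krtap7-1 with 9.2% cysteine, so the name does not show that a protein is rich in cysteine. The glycine-tyrosine limit was applied first, so Krtap28-13, with 42.0% glycine and tyrosine and 42.8% cysteine, counts as a glycine-tyrosine member. Krtap19-9a, annotated without a coding sequence, has no type. Krtap8-1 on chromosome 16 encodes 61 residues, of which 47.5% are glycine or tyrosine, and its coding sequence at chr16:89487725-89487907 (GRCm38, minus strand) is shown with the codons of these residues in capitals. Krtap3-2 on chromosome 11 encodes 99 residues with 20.2% cysteine, and its coding sequence at chr11:99556504-99556800 (GRCm38, minus strand) is shown with the cysteine codons in capitals.
Krtap8-1: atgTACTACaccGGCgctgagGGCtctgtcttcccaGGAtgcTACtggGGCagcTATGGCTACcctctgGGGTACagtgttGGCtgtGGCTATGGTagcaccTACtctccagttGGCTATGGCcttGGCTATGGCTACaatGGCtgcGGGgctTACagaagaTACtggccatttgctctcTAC
Krtap3-2: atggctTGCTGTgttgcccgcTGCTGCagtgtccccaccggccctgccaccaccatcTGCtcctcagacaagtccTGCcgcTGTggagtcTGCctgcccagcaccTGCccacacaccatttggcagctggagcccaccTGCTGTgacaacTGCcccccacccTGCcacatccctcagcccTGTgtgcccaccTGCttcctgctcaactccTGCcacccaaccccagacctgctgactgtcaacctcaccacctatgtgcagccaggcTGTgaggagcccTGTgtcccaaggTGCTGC

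The members lie in clusters. Of the Krtap members, 20 lay on chromosome 16 between 88610705 and 89571183, 13 on chromosome 11 between 99550130 and 99993994, 2 on chromosome 10 and 1 on chromosome 1. The 11 type I keratins spanned 99315516 to 100105626 of chromosome 11, around the Krtap cluster, and the 10 type II keratins 101459061 to 101802346 of chromosome 15. Of the 13 glycine-tyrosine members 12 were on chromosome 16, and 6 of the 7 ultra-high sulfur members on chromosome 11. Many members are near copies of each other. Among 13 members, over 10% of all 76-base stretches of the transcript also occurred in another gene, up to 41.1% in Krtap10-10, followed by 39.0% in Krtap3-3 and 33.2% in Krt86, so that the counts of these genes are uncertain.

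The promoters were compared because the members, spread over 5 chromosomes, had a common pattern across the libraries. RefSeq promoters of GRCm38.p6, from 250 bases before to 50 bases after the start, were found for 45 of the 57 members. TATAAA, the core of the TATA box, was in 75.6% of these on the strand of the gene, and in 80% when its reverse complement TTTATA, which can overlap it, was counted too. Among all 32851 promoters the shares were 8.32% and 13.6%. TATAAA began 40 to 20 bases before the start in 25 of the 45 promoters (55.6%) and in 1.99% of all promoters. CTTTGAAG, letters of an element known from hair keratin promoters that resembles the sequence bound by LEF1, was in 24.4% of the members' promoters on either strand and in 1.66% of all; it cannot overlap TATAAA. A match is a run of letters and not a measured binding site. The bases before the start are shown, all on the minus strand and with both motifs in capitals, for Krt31 (chr11:100050552-100050801), Krtap3-2 (chr11:99556854-99556973), Krtap8-1 (chr16:89487953-89488072) and Krt84 (chr15:101532821-101532940), since the values of these genes differ in pattern.
Krt31: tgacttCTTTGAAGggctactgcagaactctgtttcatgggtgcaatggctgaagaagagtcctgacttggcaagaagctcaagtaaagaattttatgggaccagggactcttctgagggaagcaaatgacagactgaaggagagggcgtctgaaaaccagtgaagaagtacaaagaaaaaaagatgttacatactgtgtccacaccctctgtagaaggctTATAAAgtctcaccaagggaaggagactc
Krtap3-2: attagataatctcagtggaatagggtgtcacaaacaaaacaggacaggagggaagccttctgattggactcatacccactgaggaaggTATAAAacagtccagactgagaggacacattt
Krtap8-1: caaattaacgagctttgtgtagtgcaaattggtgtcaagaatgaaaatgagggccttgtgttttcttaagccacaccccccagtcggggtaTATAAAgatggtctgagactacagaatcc
Krt84: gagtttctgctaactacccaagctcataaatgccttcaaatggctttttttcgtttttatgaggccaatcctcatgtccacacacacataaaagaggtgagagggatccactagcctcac
Neither motif was in the 120 bases shown for Krt84. No member had CTTTGAAG in the 120 bases before the start, and that of Krt31 lay at -244, so its absence there is not particular to Krt84. Farther upstream, at -206, Krt84 had TATAAA on the other strand.

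The libraries of a group were not alike for these genes, and this bears on every comparison. Levels are given as CPM, the counts of a gene relative to the TMM-scaled total of the library. The summed level of the 36 Krtap members was 25.9, 19.2 and 21.5 CPM in the PBS libraries, 15.9, 5.49 and 5.19 CPM in the IL-17A libraries, 13.8, 1.64 and 3.68 CPM in the IL-36γ libraries, and 3.90, 4.86 and 3.34 CPM in the IL-17A + IL-36γ libraries. IL-17A replicate 1 and IL-36γ replicate 1 thus lay between PBS and the other libraries of their groups. IL-17A replicate 1 was the highest of its group for 44 of the 57 members and IL-36γ replicate 1 for 49, whereas in the IL-17A + IL-36γ group the highest library was replicate 1 for 16, replicate 2 for 18 and replicate 3 for 22 members. With IL-17A, replicate 1 was the lowest of its group for 4 members: Krt32, Krt84, Krtap26-1 and Krtap3-2.

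**Figure D1:**
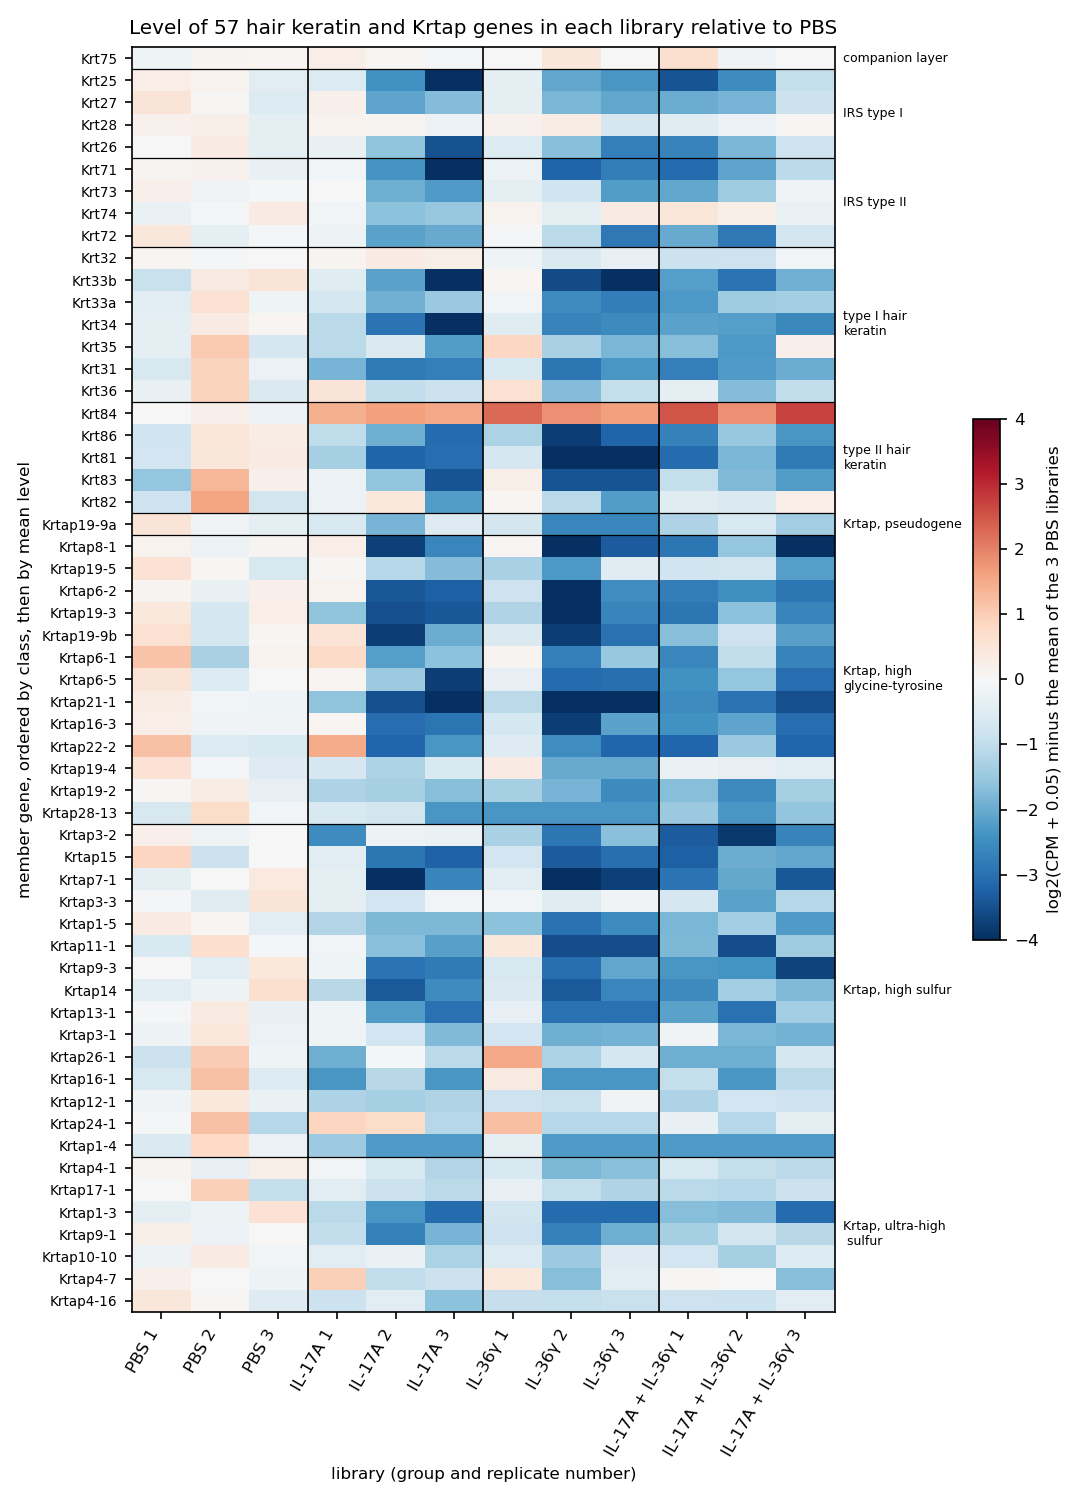
The 57 members (rows, grouped by class) in the 12 libraries (columns), as log2(CPM + 0.05) minus the mean of the 3 PBS libraries. Blue marks levels below PBS: it covers most rows in IL-17A replicates 2 and 3, IL-36γ replicates 2 and 3 and all IL-17A + IL-36γ libraries, is paler in replicate 1 of each single cytokine, and Krt84 is the row that is red in all 9 libraries with a cytokine.

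The number of members detected at all moved in the same way. It was 57, 57 and 56 in the PBS libraries, 55, 51 and 43 with IL-17A, 56, 36 and 40 with IL-36γ, and 54, 47 and 52 with both cytokines. The 22 genes with such symbols that stayed below the limit, which are no members, summed to 41, 47 and 40 counts in PBS, 14, 6 and 0 with IL-17A, 33, 2 and 5 with IL-36γ, and 7, 8 and 6 with both cytokines. In these genes too replicate 1 was the highest library of the IL-17A and of the IL-36γ group.

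The other tissues of the ear also differed between libraries of a group. The summed level of 10 skeletal muscle genes was 461 CPM in PBS replicate 1 against 3631 and 3163 CPM in the other PBS libraries, while the members' sum in the same libraries was 72.1, 73.0 and 64.6 CPM. In the IL-17A group the muscle sum was 2228, 2914 and 3195 CPM, with the lowest value in replicate 1. In the IL-36γ group it was 2339, 1270 and 1989 CPM, highest in replicate 1 and lowest in replicate 2 as was the Krtap sum. Cartilage and adipocyte genes, 6 of each, summed to 333, 300 and 194 CPM and to 438, 384 and 258 CPM in the IL-17A libraries, both highest in replicate 1 like the members. In the IL-36γ libraries these sums were 200.1, 164 and 211 CPM and 274, 149 and 291 CPM, both highest in replicate 3 and lowest in replicate 2. The stress keratins Krt6a, Krt6b, Krt16 and Krt17, which injured and inflamed epidermis makes, summed to 2236, 635 and 578 CPM in the IL-17A libraries, with the highest value in the library that was also highest for the members. In the IL-36γ group they summed to 3026, 5487 and 2080 CPM, with the highest value in replicate 2. The part of these tissues in the results was not tested.

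Genes were tested with edgeR's quasi-likelihood test, and a gene was called where the p-value adjusted by Benjamini-Hochberg was under 0.05 and the log2 fold change beyond 1 in either direction. The filter on low counts left 34 of the 57 members for the tests. It asks for 3 libraries over 0.334 CPM of any group, and 21 of the 34 did not have 3 such libraries outside PBS. These 21 could be tested because of their PBS level, so counts over the 34 are a description and not support for a direction. Over all 57 members, without this filter and with no test, the mean with both cytokines was below the PBS mean for 54 members. The share was 52.8% among the 23652 genes with a summed count of at least 20. The exceptions among the members were Krt74, Krt75 and Krt84. All 3 IL-17A + IL-36γ libraries lay below all 3 PBS libraries for 41 of the 57 members (23.1% of those genes). For IL-17A alone this count was 21 (background 13.4%) and for IL-36γ alone 24 (background 17.8%). The limit of 20 summed counts can itself be passed through PBS, as by Krtap1-4 with 22 of its 27 counts there. Counts over the 57 members are therefore also a description and not support for a direction.

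The 3 comparisons with PBS share the PBS libraries. IL-17A against PBS asks what this cytokine does to the genes by itself, and 6 of the 34 tested members were called, 5 lowered (1.03% of all 19408 genes tested were called lowered) and 1 raised (1.07% of all). The lowered members were Krt31, Krt34, Krtap1-5, Krtap19-3 and Krtap21-1, and the raised one was Krt84. With IL-36γ 7 members were called, namely Krt31, Krt86, Krtap1-5, Krtap3-2, Krtap19-3 and Krtap21-1 as lowered (1.98% of all genes) and Krt84 as raised (5.11% of all genes). With IL-17A + IL-36γ 18 members were called, 17 lowered (6.06% of all genes) and Krt84 raised (7.35% of all genes). Among the 13 members that passed the filter through libraries outside PBS, 4 were called with both cytokines: Krtap3-2, Krtap3-3 and Krtap15 as lowered and Krt84 as raised. With IL-17A 0 of these 13 were called lowered and with IL-36γ 1 was, Krtap3-2, so that the 5 members lowered with IL-17A and 5 of the 6 lowered with IL-36γ were among the 21 that passed through their PBS level. Krt31, Krt84, Krtap1-5, Krtap19-3 and Krtap21-1 were called in all 3 comparisons.

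Without the filter all 57 members were tested. Then 7 members were lowered with IL-17A (0.725% of 34054 genes), 17 with IL-36γ (1.39%) and 29 with IL-17A + IL-36γ (4.4%), and Krt84 was the raised member each time (0.702%, 3.05% and 4.54% of genes were raised). The median log2 fold change of the 57 members in this fit was -1.47, -1.64 and -2.06 in the order of these comparisons. Over all genes tested with the filter the medians were 0.04, -0.02 and -0.03, and over the 34 tested members they were -1.46, -1.69 and -2.37. This order depended on replicate 1 of the single cytokines. Without IL-17A replicate 1 the median of the tested members was -3.05 with IL-17A and -2.43 with both cytokines. Without IL-36γ replicate 1 it was -3.34 with IL-36γ and -2.43 with both.

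**Figure D2:**
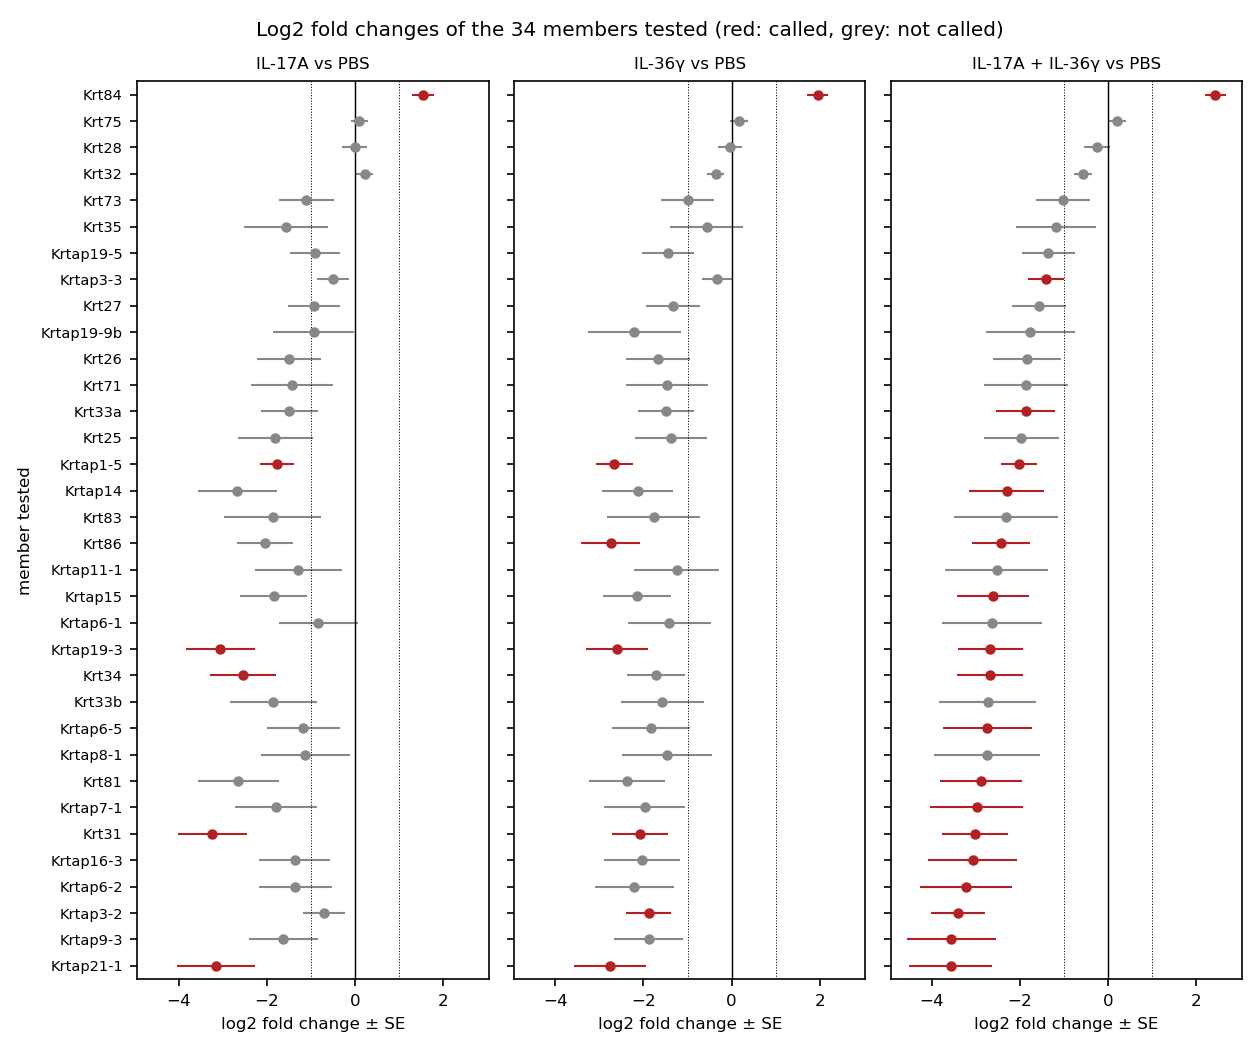
Log2 fold changes (horizontal axis) of the 34 tested members against PBS for each treatment, with standard errors from edgeR; red points are called and dotted lines mark the fold change limit of 1. With IL-17A + IL-36γ 17 members are called lowered and Krt84 raised. Error bars are wide in all panels for members such as Krtap8-1, with standard errors of 1.01 with IL-17A, 1.03 with IL-36γ and 1.21 with both.

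Leaving out single libraries changed these counts strongly. For IL-17A against PBS, 1 member (Krt84) was called without PBS replicate 2 or without any 1 of the IL-17A replicates, 0 without PBS replicate 3, and 9 without either PBS replicate 1 or IL-36γ replicate 1. The calls over all genes moved too, from 407 to 913, 142 and 11 when PBS replicate 1, 2 or 3 was left out, to 33, 212 and 322 when IL-17A replicate 1, 2 or 3 was, and to 353 when IL-36γ replicate 1 was. For IL-36γ against PBS, 24 members were called without IL-36γ replicate 1, 15 without IL-17A replicate 1 (which shares the estimate of the spread), 11 without PBS replicate 1, 4 without PBS replicate 3 and 3 without IL-36γ replicate 2, while the calls over all genes, 1377 with all libraries, were 1215, 1458, 1799, 1047 and 1075 in the same order. For IL-17A + IL-36γ against PBS, 10 were called without PBS replicate 3, 10 without IL-17A + IL-36γ replicate 1, and 11 without IL-17A + IL-36γ replicate 2, with 2202, 2219 and 2396 calls over all genes against 2603 with all libraries. The filter, applied anew each time, left 36 to 40 members for the tests. Among the 18 members called there, Krt31, Krt34, Krt84, Krt86, Krtap1-5, Krtap3-2, Krtap9-3 and Krtap19-3 were called in every alternative that tested them. Of these, Krt84 and Krtap3-2 passed the filter through libraries outside PBS. The others passed it through their PBS level, so that their repeated calls are no support for a direction.

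After Krt75, the inner root sheath keratins Krt71 and Krt25 had the highest levels per kb of the members in PBS ears. Krt71, the type II keratin common to the layers of the IRS, had 3.95 CPM per kb of transcript in PBS, and Krt25, its type I partner, had 3.31 CPM per kb. Krt71 was measured at 9.27, 9.68 and 6.97 CPM in the PBS libraries, 7.89, 1.63 and 0.121 CPM with IL-17A, 7.32, 0.883 and 1.21 CPM with IL-36γ, and 0.975, 1.94 and 4.15 CPM with both cytokines. Replicate 1 of each single cytokine was within the range of PBS, and the other 7 cytokine libraries lay below all PBS libraries. The log2 fold changes were -1.43 ± 0.93 (SE, adjusted p = 0.316) with IL-17A, -1.47 ± 0.92 (0.248) with IL-36γ and -1.86 ± 0.95 (0.130) with both, and none was called.

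Krt25 had the same form. It was 7.83, 7.11 and 4.82 CPM in PBS, 4.43, 1.16 and 0.0402 CPM with IL-17A, 4.89, 1.49 and 1.24 CPM with IL-36γ, and 0.546, 1.10 and 3.31 CPM with both cytokines. Only IL-36γ replicate 1 reached the PBS range. Its log2 fold change with both cytokines was -1.97 ± 0.85 (SE, adjusted p = 0.0788). Without IL-17A replicate 1 the value of Krt25 for IL-17A against PBS went from -1.80 to -3.40 (adjusted p = 0.112), and that of Krt71 from -1.43 to -3.27 (adjusted p = 0.137).

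Krt27 and Krt28, type I keratins of the IRS beside Krt25, differed from each other. Krt27 averaged 3.21 ± 1.17 CPM in PBS and 1.07 ± 0.520 CPM with both cytokines (SD, n = 3), with a log2 fold change of -1.57 ± 0.62 (SE, adjusted p = 0.0573). Krt28 ranged over the 12 libraries between 0.620 and 1.25 CPM, with a log2 fold change of -0.25 ± 0.29 (SE, adjusted p = 0.497) with both cytokines, and the groups overlapped. Krt73, a type II keratin of the IRS cuticle, had 1.17 ± 0.146 CPM in PBS and 0.558 ± 0.423 CPM with both cytokines (SD, n = 3), and was not called (adjusted p = 0.191). Krt26 and Krt72 had means of 0.524 and 0.324 CPM in PBS and 0.139 and 0.0687 CPM with both cytokines. Krt74, a pseudogene in this annotation, had 0.212 CPM in PBS and 0.245 CPM with both.

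The companion layer keratin Krt75 was the member with the highest level, 4.74 CPM per kb over all libraries. It was 12.5, 15.3 and 15.0 CPM in PBS, 17.2, 14.8 and 13.8 CPM with IL-17A, 14.4, 19.4 and 14.3 CPM with IL-36γ, and 22.3, 12.9 and 14.2 CPM with both cytokines. The groups overlapped, and IL-17A and IL-36γ replicate 1 did not stand apart. The log2 fold change with both cytokines was 0.21 ± 0.20 (SE, adjusted p = 0.413). Without IL-17A + IL-36γ replicate 1 its sign changed, to -0.07. An antisense gene overlaps Krt75, and the strand setting of the counting is not given in the sources used here.

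**Figure D3:**
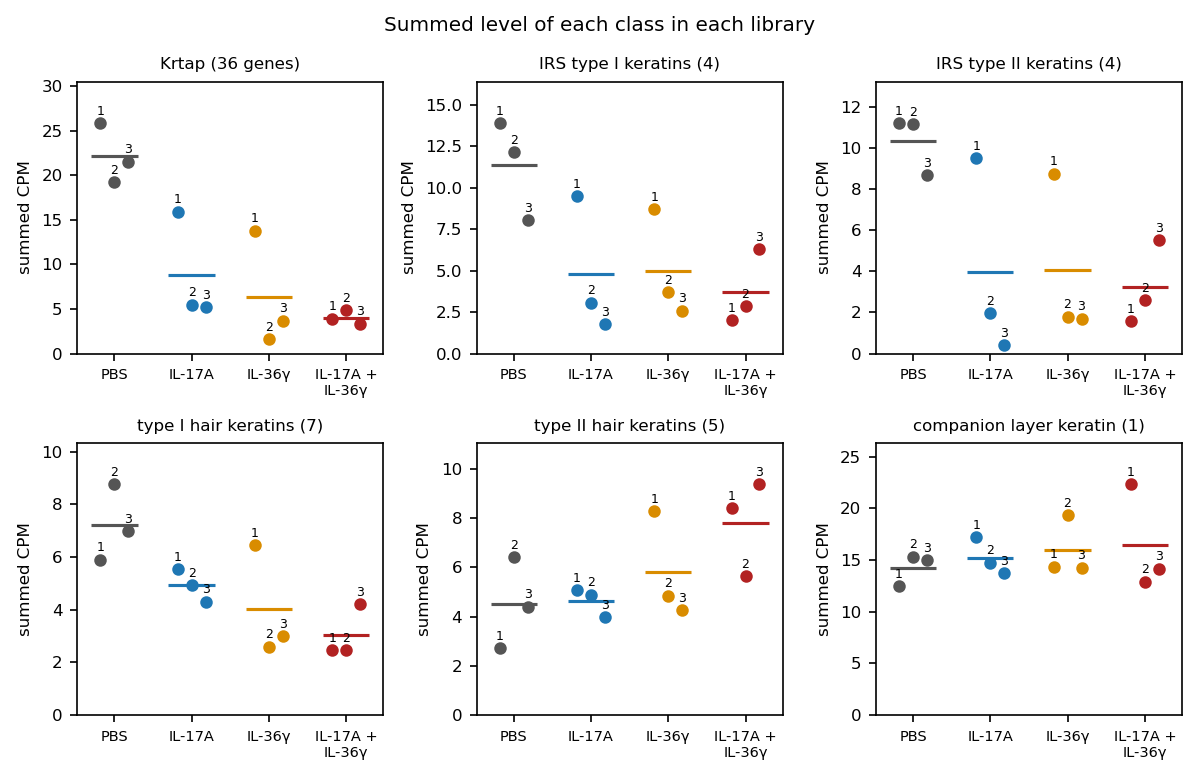
Summed CPM (vertical axis) of each class of members in every library, with replicate numbers at the points and bars at the group means. Replicate 1 is the highest library of the single cytokine groups for Krtap and for both IRS classes, while Krt75 of the companion layer overlaps between all groups, and the sum of type II hair keratins is dominated by Krt84 wherever a cytokine was given.

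Of the type I hair keratins of the shaft, Krt31, Krt33a and Krt34 were called lowered with both cytokines. These genes and Krt33b passed the filter through their PBS level, so that their calls are no support for a direction. Krt31, a keratin of the hair cortex, was 0.332, 1.05 and 0.455 CPM in the PBS libraries, 0.113, 0.0332 and 0.0402 CPM with IL-17A, 0.333, 0.0305 and 0.0689 CPM with IL-36γ, and 0.0390, 0.0732 and 0.10 CPM with both cytokines. All libraries with IL-17A, alone or combined, were below all PBS libraries, and IL-36γ replicate 1 reached the lowest PBS library. The log2 fold changes were -3.23 ± 0.78 (SE, adjusted p = 0.0289) with IL-17A, -2.08 ± 0.64 (0.0307) with IL-36γ and -3.01 ± 0.75 (0.00664) with both. Krt34 changed by -2.53 ± 0.74 (SE, adjusted p = 0.0491) with IL-17A and by -2.68 ± 0.75 (0.0131) with both cytokines. With IL-36γ it was not called, at -1.72 ± 0.65 (adjusted p = 0.0674). Its call with IL-17A was lost in 12 of 20 alternatives. Krt34 was 0.637, 1.08 and 0.909 CPM in PBS and 0.156, 0.146 and 0.10 CPM with both. Krt33a was called with both cytokines at -1.87 ± 0.67 (adjusted p = 0.0395), and Krt33b was not, at -2.73 ± 1.11 (adjusted p = 0.0623). Krt31, Krt33a, Krt33b and Krt34 share sequence among themselves, so reads can be lost or moved between them.

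Krt32, a type I keratin of the hair cuticle, behaved differently. It was 3.54, 3.17 and 3.36 CPM in PBS, 3.61, 4.22 and 3.94 CPM with IL-17A, 2.96, 2.22 and 2.65 CPM with IL-36γ, and 1.83, 1.87 and 3.08 CPM with both cytokines. All IL-17A libraries lay above all PBS libraries and all libraries with IL-36γ below them. The nearest values were 3.61 CPM with IL-17A against 3.54 CPM in PBS, and 3.08 CPM with both cytokines against 3.17 CPM in PBS. With both cytokines its log2 fold change was -0.57 ± 0.20 (SE, adjusted p = 0.0375) against PBS and -0.79 ± 0.20 (adjusted p = 0.0112) against IL-17A, which passes the p-value but not the fold change limit. Krt32 overlaps an antisense gene.

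Of the type II hair keratins, Krt81 and Krt86 were called lowered with both cytokines, and Krt84 raised. Krt81 and Krt86 passed the filter through their PBS level, so that their calls are no support for a direction. Krt84 passed it through libraries outside PBS. Krt86 was 0.581, 1.47 and 1.3 CPM in PBS and 0.117, 0.329 and 0.167 CPM with both cytokines, a log2 fold change of -2.42 ± 0.66 (SE, adjusted p = 0.0109), and it changed by -2.74 ± 0.67 (adjusted p = 0.0111) with IL-36γ. Krt81 was 0.581, 1.42 and 1.3 CPM in PBS and 0.0780, 0.256 and 0.10 CPM with both, a log2 fold change of -2.89 ± 0.94 (SE, adjusted p = 0.0256). Krt81 and Krt86, keratins of the hair cortex, share 30.5% and 33.2% of their short sequence stretches with other genes, each other among them, so that they are not independent of each other. Krt83 was not called, with 0.138, 1.33 and 0.576 CPM in PBS and 0.234, 0.110 and 0.0669 CPM with both.

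Krt84, a type II hair keratin that is also known from the tongue, was the only member called raised. It was 1.33, 1.53 and 1.12 CPM in PBS, 3.64, 4.19 and 3.82 CPM with IL-17A, 6.46, 4.75 and 4.20 CPM with IL-36γ, and 7.84, 4.83 and 8.80 CPM with both cytokines. Every library with a cytokine lay above every PBS library. The log2 fold changes against PBS were 1.55 ± 0.25 (SE, adjusted p = 0.0120) with IL-17A, 1.95 ± 0.24 (0.000260) with IL-36γ and 2.43 ± 0.24 (2.99e-05) with both. The group means were in the order PBS, IL-17A, IL-36γ, then both cytokines. The step from IL-17A to both cytokines was 0.88 ± 0.23 (SE, adjusted p = 0.0115), below the fold change limit, and that from IL-36γ to both was 0.48 ± 0.22 (adjusted p = 0.333). Without PBS replicate 3 the value for IL-17A against PBS was no longer past the threshold, at 1.43 (adjusted p = 0.0821). None of its 76-base stretches occurred in another gene.

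Among the glycine-tyrosine Krtap genes of chromosome 16, which supply the matrix between the filaments, levels went to a few reads per library. Krtap8-1, the one with the highest level per kb, was 1.63, 1.25 and 1.61 CPM in PBS, 1.80, 0.0665 and 0.201 CPM with IL-17A, 1.53, 0 and 0.103 CPM with IL-36γ, and 0.156, 0.476 and 0.0334 CPM with both cytokines. IL-17A replicate 1 was the highest of all 12 libraries, and the other 2 IL-17A libraries were far below PBS. Its log2 fold change with both cytokines was -2.75 ± 1.21 (SE, adjusted p = 0.0825). Without IL-36γ replicate 1 the value for IL-36γ against PBS moved from -1.47 (adjusted p = 0.298) to -4.85 (adjusted p = 0.0371), which would be called.

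Krtap19-3 and Krtap21-1 were called in each comparison with PBS, and for both genes replicate 1 of the single cytokines was below the PBS libraries as well. Krtap21-1 was 1.11, 0.821 and 0.788 CPM in PBS, 0.263, 0.0332 and 0 CPM with IL-17A, 0.399, 0 and 0 CPM with IL-36γ, and 0.117, 0.0732 and 0.0334 CPM with both cytokines. Its log2 fold change with both was -3.57 ± 0.94 (SE, adjusted p = 0.00912). Krtap19-3 was 1.22, 0.538 and 1.09 CPM in PBS and 0.0780, 0.256 and 0.10 CPM with both, a log2 fold change of -2.68 ± 0.74 (SE, adjusted p = 0.0114). Of the 9 tested glycine-tyrosine members 5 were called lowered with both cytokines (6.06% of all genes tested were). The others were Krtap6-2, Krtap6-5 and Krtap16-3, with values between -3.22 and -2.74. All 5 passed the filter through their PBS level. Krtap19-5 and Krtap19-9b, with high levels per kb, were not called, at -1.36 ± 0.60 and -1.77 ± 1.01 (SE, adjusted p = 0.0842 and 0.174).

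Of the 8 tested high sulfur Krtap members 7 were called lowered with both cytokines (6.06% of all genes tested were). Of these, Krtap3-2, Krtap3-3 and Krtap15 passed the filter through libraries outside PBS, and the others through their PBS level. Without the filter 9 of the 15 high sulfur members were called, against 10 of the 13 glycine-tyrosine members (4.4% of all genes were lowered). The difference between these classes was not tested. Krtap1-5 on chromosome 11 was 1.05, 0.878 and 0.606 CPM in PBS, 0.338, 0.199 and 0.201 CPM with IL-17A, 0.233, 0.0609 and 0.103 CPM with IL-36γ, and 0.195, 0.293 and 0.134 CPM with both cytokines. All 9 cytokine libraries were below all PBS libraries. The log2 fold changes were -1.77 ± 0.39 (SE, adjusted p = 0.0239) with IL-17A, -2.66 ± 0.43 (0.00110) with IL-36γ and -2.02 ± 0.40 (0.00177) with both. Krtap7-1 and Krtap15 of chromosome 16, the former with 29.9% glycine and tyrosine, were called with both cytokines at -2.98 ± 1.06 (SE, adjusted p = 0.0377) and -2.61 ± 0.82 (0.0223). Krtap9-3 and Krtap14 were called as well, at -3.56 ± 1.01 (SE, adjusted p = 0.0135) and -2.30 ± 0.85 (0.0436). Krtap14 and Krtap15 overlap on opposite strands.

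Krtap3-2 had a pattern of its own among the libraries. It was 3.24, 2.49 and 2.79 CPM in PBS, 0.451, 2.43 and 2.33 CPM with IL-17A, 1.13, 0.335 and 0.861 CPM with IL-36γ, and 0.234, 0.146 and 0.401 CPM with both cytokines. Here IL-17A replicate 1 was low and the other IL-17A libraries were just under PBS, the reverse of Krtap8-1. All libraries with both cytokines were below every other library but IL-36γ replicate 2, which at 0.335 CPM lay within their range. The log2 fold change against PBS was -1.88 ± 0.51 (SE, adjusted p = 0.0177) with IL-36γ and -3.41 ± 0.60 (0.000868) with both.

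**Figure D4:**
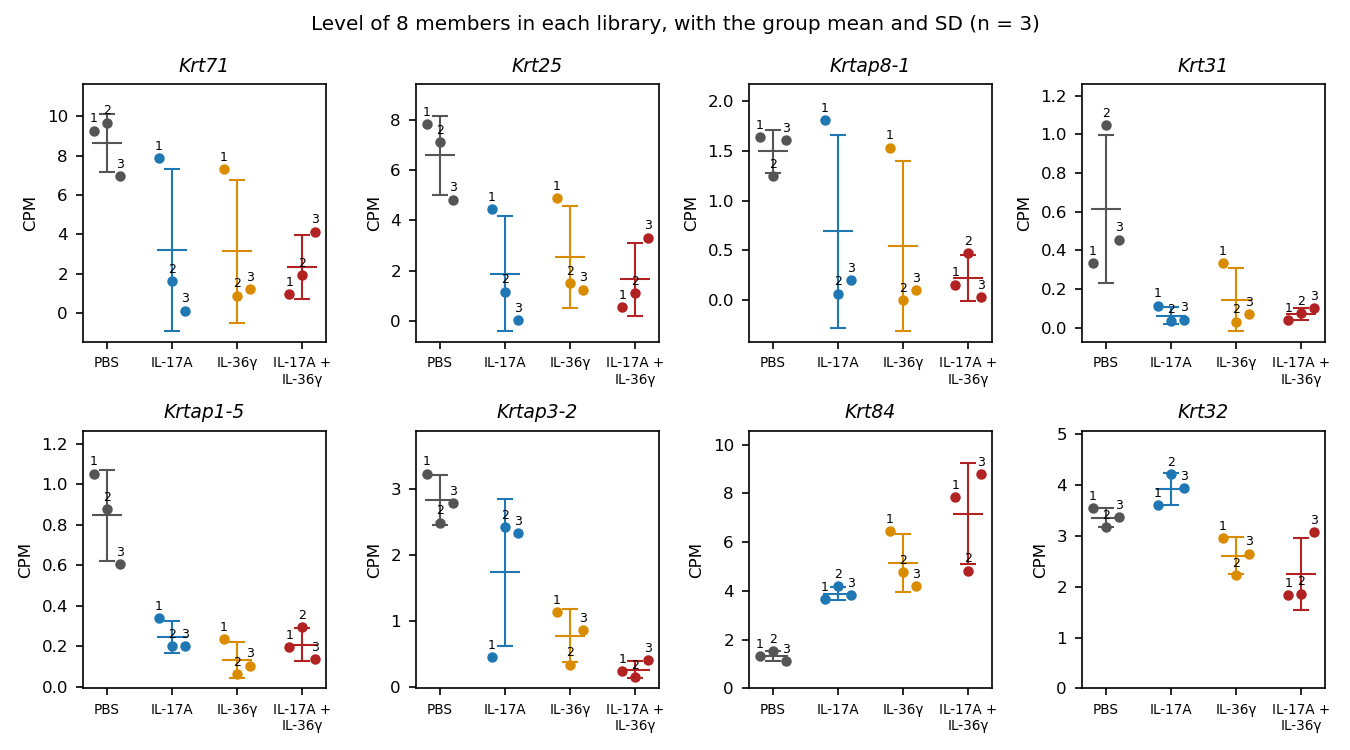
CPM (vertical axis) of 8 members in each library, with replicate numbers at the points and bars for the group mean and SD (n = 3). Krt71, Krt25 and Krtap8-1 have a high replicate 1 in the single cytokine groups, Krtap3-2 has a low IL-17A replicate 1, and Krt84 is above PBS in all 9 cytokine libraries.

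Krtap3-2 was also the 1 member called between IL-17A + IL-36γ and IL-17A, the comparison that asks what IL-36γ adds to IL-17A. The log2 fold change was -2.70 ± 0.63 (SE, adjusted p = 0.00708), while 8.95% of all genes were called there. Without IL-17A + IL-36γ replicate 2 or replicate 3 the count of members was 2, with Krtap3-2 called in every alternative that tested it. Its neighbour Krtap3-3, which shares 39.0% of its short stretches with other genes, Krtap3-2 among them, was called against PBS with both cytokines only, at -1.41 ± 0.41 (SE, adjusted p = 0.0146). Without IL-17A + IL-36γ replicate 2 or without PBS replicate 3 this call was lost (adjusted p = 0.0584 and 0.0709).

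Ultra-high sulfur Krtap genes, which are made in the hair cuticle and cortex, were too low to be tested with the filter. Their 7 members summed to 1.63, 1.73 and 1.64 CPM in the PBS libraries, 1.13, 0.565 and 0.322 CPM with IL-17A, 0.998, 0.213 and 0.379 CPM with IL-36γ, and 0.663, 0.622 and 0.502 CPM with both cytokines. In counts these sums were 54 to 61 in PBS and 7 to 30 in the other libraries. The 9 cytokine libraries were all below PBS in this sum.

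In members of the other types, the high sulfur Krtap1-4 had no count in any library of IL-17A + IL-36γ, against 22 counts in PBS. The glycine-tyrosine Krtap28-13 had no count in any library of IL-36γ, against 23 counts in PBS. They were at least 5.82-fold and at least 6.75-fold lower, respectively, with a floor of 3 counts over the group. Their summed counts were 27 and 31, so both passed the limit on the summed count through their PBS libraries. These bounds are therefore a description and not support for a direction.

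Adding IL-17A to IL-36γ gave no called member (0.0103% of all genes were called), and Krtap3-2 and Krtap3-3 were the 2 with an unadjusted p-value below 0.05 in edgeR's quasi-likelihood test. Krtap3-3 was at -1.09 ± 0.43 (SE, adjusted p = 0.263) and Krtap3-2 at -1.53 ± 0.68 (adjusted p = 0.316). DESeq2 called 0 members as well. The interaction, the change by IL-17A with IL-36γ minus that without it, was called for 0 of the 34 members by edgeR, with 3 at an unadjusted p-value below 0.05 and 0.551% of all genes called, and for 2 of 39 members by DESeq2, which called 2486 of the 50684 genes counted. The value was 2.41 ± 0.68 (SE, adjusted p = 0.0845) for Krtap1-5 and -1.07 ± 0.33 (adjusted p = 0.102) for Krt84.

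Transcription factors known to drive hair differentiation were read beside the members. Hoxc13, which binds hair keratin and Krtap promoters, was 2.71, 2.10 and 2.33 CPM in PBS and 2.38, 2.49 and 2.07 CPM with both cytokines, a log2 fold change of -0.04 ± 0.18 (SE, adjusted p = 0.864). Foxn1, the factor lost in nude mice, was at 0.24 ± 0.12 (SE, adjusted p = 0.124). Lef1 and Msx2, factors of the hair matrix, were at -0.67 ± 0.20 (SE, adjusted p = 0.0187) and -0.51 ± 0.17 (0.0312), below the fold change limit. Of 11 tested regulators of the hair follicle 1 was called with both cytokines, as lowered (6.06% of all genes tested were). It was the Wnt ligand Wnt10b, which fell from 2.91, 4.53 and 5.30 CPM in PBS to 0.663, 0.439 and 0.836 CPM (log2 fold change -2.70 ± 0.30, SE, adjusted p = 5.17e-05).

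Other proteins of the shaft and sheath went both ways with IL-17A + IL-36γ. Of 9 tested genes 4 were raised (7.35% of all genes), Dsc2, Gsdma, Padi1 and Tgm3, which differentiating epidermis also uses. S100a3 of the hair cuticle was called lowered (6.06% of all genes), at -1.35 ± 0.24 (SE, adjusted p = 0.000973). Trichohyalin (Tchh), the granule protein of the IRS, was 24.7, 22.0 and 20.2 CPM in PBS, 14.4, 9.74 and 7.40 CPM with IL-17A, 14.4, 9.26 and 8.26 CPM with IL-36γ, and 11, 13.1 and 13.2 CPM with both. It was called lowered with each single cytokine and lay at -0.85 ± 0.23 (SE, adjusted p = 0.0114) with both. As for most members, replicate 1 was the highest library of each single cytokine group, but here it too was below PBS.

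Cells that accompany the growing follicle were followed by marker lists. Of all genes tested, 6.06% were called lowered and 7.35% raised with both cytokines. Counts of 1 of 6 or 2 of 12 genes therefore say little about a list. With both cytokines, 4 of 8 melanocyte genes were lowered (Oca2, Pmel, Slc45a2 and Tyrp1), and their list summed to between 80.1 and 92.4 CPM in the 6 libraries with IL-36γ, between 114 and 133 CPM with IL-17A and between 138 and 169 CPM in PBS. Corin of the dermal papilla (1 of 6), Fgf18 of the cycle signals (1 of 6), and Gli1 and Krt15 of the follicle stem cells and upper follicle (2 of 12) were lowered too, and 0 of 6 sebaceous gland genes were called, with log2 fold changes of median -0.27. In contrast to the hair keratins, the epidermal keratins Krt1 and Krt14 (2 of 6) and the stress keratins Krt6a, Krt6b and Krt16 (3 of 4) rose, and all 6 proliferation genes did. With both cytokines 4 of 10 muscle, 3 of 6 cartilage and 6 of 6 adipocyte genes were lowered and 6 of 6 neutrophil genes raised. The part of such shifts in tissue makeup in the members' lower levels was not tested.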

How the data were processed

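RNA-Seq of ear tissue was analysed in 12 libraries, 3 mice per group, 3 of the 5 mice per group of the study. Per the labels and methods, the libraries were made from total RNA with a stranded kit, and the authors used STAR 2.5.2b for alignment to mm10 and assigned them to Ensembl genes with featureCounts of Subread 1.5.1. The deposited values are raw counts per gene without normalization. The strand setting and annotation release of the counting are not given in the sources used here. The authors also deposited fold changes and p-values of their own DESeq2 comparisons, of which only the gene symbols were used.

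Groups were taken from the labels. Genes were placed with GENCODE vM21 of GRCm38, which matched all 57 members. Counts were analysed in R 4.3.3 with edgeR 4.0.16 (filterByExpr with a minimum count of 10, TMM, quasi-likelihood test in 1 fit of 12 libraries), with limma 3.58.1, data.table (version 1.17.8) and, for the alternatives, DESeq2 1.42.0, and plotted with Python 3.11.15 and matplotlib 3.10.9. The procedure was tested on simulated data. Levels per kb are CPM divided by the length of the merged exons. Whether a 76-base stretch (the read length) of a member's transcripts also occurs in another gene was checked. Libraries of a group differed by a chi-square per gene of 7.09 to 64.0, so none was a copy. Libraries are separate mice as far as the labels say, and p-values measure the spread between them.

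Members and lists were chosen with earlier results of these data known. Named with values were, in each class, the 3 tested members with the highest level per kb, for each comparison the 3 members with the smallest p-value and all called members if at most 10 were called, and of each other list up to 3 called genes. Other members named, such as Krt33a, Krt83 or Krtap14, were chosen after their values were seen. As alternatives, the likelihood ratio test of DESeq2, 2 other scalings, 2 other filters, a fit of only the 2 groups, a call without a fold limit, a robust prior, a block for the replicate number and the removal of each library were tried.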

Additional observations from a re-analysis of the deposited data

How the results depend on the processing

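Counts of called members depended on the alternatives, and against a single cytokine the direction of the members' median did too. Without IL-36γ replicate 1 the median log2 fold change of IL-17A + IL-36γ against IL-36γ went from -0.53 to 0.99. Without IL-17A replicate 1 that against IL-17A went from -0.44 to 0.84. The counts called stayed at 0 and 1. For IL-17A against PBS the count of 6 became 1 with at least 10 counts in every library and 1 with only the 2 groups. The 407 calls over all genes became 281 and 9. For IL-36γ against PBS the count of 7 became 11 with the DESeq2 likelihood ratio test, 11 with library size only, 18 with no filter, 1 with at least 10 counts in every library and 12 with the replicate block. Over all genes 1377 calls became 1797, 1520, 1512, 937 and 1435 in this order. For IL-17A + IL-36γ against PBS the count of 18 became 30 with no filter and 1 with at least 10 counts in every library, where 5 members were left to test. The 2603 calls over all genes became 3044 and 1830. For IL-17A + IL-36γ against IL-17A the count of 1 became 2 with DESeq2, 0 with at least 10 counts in every library and 3 with no fold change threshold. Here 1737 calls over all genes became 2072, 1211 and 6355. For the interaction the count of 0, with 107 of 19408 genes called, became 2 with DESeq2, which called 2486 of the 50684 genes counted, and 1 with the replicate block, which called 883 of 19408. Leaving out each library in turn gave 0 to 9 calls for IL-17A against PBS, 3 to 24 for IL-36γ against PBS, 10 to 25 for IL-17A + IL-36γ against PBS, and 1 to 2 for IL-17A + IL-36γ against IL-17A. Calls over all genes then ranged from 11 to 913, 1047 to 1799, 2202 to 3170 and 1291 to 1990 in this order. Neither the labels nor the methods say that a replicate number marks a shared day or batch. The deviations of same-numbered libraries correlated between -0.199 and 0.352, 9 of 18 pairs above 0.1, and 8 of 12 libraries correlated best with their own number, so the pairing is a hint from the data only. The log2 fold changes of called members and some chosen others were followed under the alternatives. Of these, 966 values kept direction and side of the thresholds, 110 were no longer past them and 31 came past them. That of Krt75 with both cytokines changed sign without IL-17A + IL-36γ replicate 1 (-0.0716, with 0.344 as its highest value without 1 library). Apart from the fewer genes or libraries tested, the cause was not tested. Depth limits the low members, since 1 count was about 0.03 CPM.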
